A study of Danio rerio with 27 samples.

Results

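Transcripts of microRNA genes were examined in whole zebrafish larvae exposed to lethal cold with and without inhibitors of 3 signaling pathways. The 30 genes are those of the 24101 in the expression table whose name begins with dre-mir- or dre-let-. They were taken by name, from a table that the authors had already filtered on its values. All larvae were of the AB strain, raised at 28 °C to the 96hpf stage, named in hours post fertilization, and each of the 9 groups had 3 RNA-seq libraries, 27 in all. The 10C_AS, 10C_PD, 10C_SB and 10C_DMSO groups then spent 12 h at 10 °C in AS1842856 at 0.5 µM, which blocks the transcription factor Foxo1, in PD0325901 at 5 µM, which inhibits MEK, the kinase upstream of ERK, in SB203580 at 50 µM, which inhibits the p38 kinases, or in the vehicle DMSO. The 28C_AS, 28C_PD, 28C_SB and 28C_DMSO groups received the same 4 treatments for 12 h at 28 °C. The untreated 96hpf group was collected at the start of the exposures.

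MicroRNAs are short RNAs that guide Argonaute proteins to messenger RNAs, which are then repressed. Most are transcribed as long primary transcripts, from which the Drosha complex cuts a hairpin in the nucleus and Dicer cuts the mature strand in the cytoplasm, and several copies in a genome can give the same mature strand. Many are restricted to one tissue, such as the microRNAs of muscle, skin and neurons, and in whole larvae the values sum over all of these. Total RNA was extracted from the larvae and the reads were assigned to annotated transcripts, so the values describe the annotated gene transcripts, and mature strands were not measured. Whether a value stands for the hairpin alone or for a longer primary transcript could not be seen from the values.

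The table gives TPM, a length-corrected share of the transcripts in a library, and the values below are TPM scaled between libraries by the median of ratios, with factors of 0.940 to 1.11 (scaled TPM). A TPM table keeps no read depth, and no counting interval was set on these values. A value of 0 is given here only as listed at 0. Zeros were common: 104 of the 810 values were 0, and 13 of the 30 genes (43.3%) had at least 1 library at 0, against 5.62% of all genes. The authors kept a gene in the table when it reached a TPM of 1 in all replicates of at least 1 group. That minimum was met in all 9 groups by 6 of the microRNA genes (dre-let-7a-5, dre-mir-124-5, dre-mir-181b-1, dre-mir-21-1, dre-mir-22a and dre-mir-375-2) and in 1 group by 5. It was met in groups at 10 °C alone by 10 of them (dre-mir-124-3, dre-mir-124-6, dre-mir-125b-3, dre-mir-132-1, dre-mir-153b, dre-mir-181b-3, dre-mir-199-2, dre-mir-2184, dre-mir-29b-1 and dre-mir-454b) and in groups at 28 °C, 96hpf included, alone by 3 (dre-mir-204-2, dre-mir-429b and dre-mir-729), so these 13 were in the table through groups of 1 temperature, and counts, medians and tests of the cold change carry that selection.

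Each comparison was tested with limma on log2(scaled TPM + 1), and a gene was called at a fold of at least 1.5 with an adjusted p of at most 0.05 over all 24101 genes. Changes are log2 differences on that scale, with the standard error (SE) of the fit, and they understate the change of genes near 0. The authors call the replicates biological but name no separate clutches or tanks for them, so the p-values measure the spread between these libraries alone. In whole larvae, fewer cells of a type and less RNA per cell cannot be told apart.

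The first question was which microRNA gene transcripts differed between larvae at 10 °C and larvae at 28 °C that had the same treatment. Skeletal muscle dre-mir-206-1, epidermal dre-mir-205 and dre-mir-729 fell in the cold in all 4 treatments. The transcripts of dre-mir-101a, dre-mir-124-6, dre-mir-132-1, dre-mir-181b-3, dre-mir-199-2 and dre-mir-21-1 rose in all 4. The calls numbered 11 of 30 in DMSO (8 higher and 3 lower, where 15.8% of all genes were called, 8.73% higher and 7.06% lower), 13 of 30 with AS1842856 (10 higher and 3 lower, against 22.4% of all genes, 12.2% higher and 10.2% lower), 16 of 30 with PD0325901 (11 higher and 5 lower, against 17.5%, 10.4% higher and 7.17% lower) and 13 of 30 with SB203580 (10 higher and 3 lower, against 16.2%, 9.39% higher and 6.83% lower). Over the 4 treatments together, 12 libraries against 12, 16 members were called (12 higher and 4 lower, against 15.5% of all genes, 9.34% higher and 6.20% lower). The median log2 change of the 30 members in that comparison was 0.26, against -0.01 for all genes. Among the 17 members that met the minimum at both temperatures it was -0.01, with 3 called higher and 3 lower, so the median over all 30 says nothing of a common direction. Of these 17, 4 were called higher and 2 lower in DMSO, and 3 and 2 with AS1842856. With PD0325901 they were 2 higher and 4 lower, and with SB203580 3 and 2. The higher calls among the 30 thus include members in the table through groups at 10 °C alone, and the part of that selection was not tested. The shares of all genes come from the same filtered table. The 4 cold comparisons share no libraries. Of the members, 9 were called in all 4 (6.94% of all genes were), 6 of them higher (4.85%) and 3 lower (2.03%), 5 of the 9 being in the table through groups of 1 temperature. A further 10 were called in 1 to 3 (28.8% of all genes) and 11 in none (64.3%), and 0 in opposite directions (0.402%).

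The transcripts of 5 members lay higher in every library at 10 °C than in every library at 28 °C (8.20% of all genes did), and 3 lay lower in every one (5.81% of all genes), 14.0% of all genes together. Those above were dre-mir-124-6, dre-mir-132-1, dre-mir-181b-1, dre-mir-181b-3 and dre-mir-199-2, and those below were dre-mir-205, dre-mir-206-1 and dre-mir-729. Of these 8 genes, 5 were in the table through one temperature alone.

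**Figure D1:**
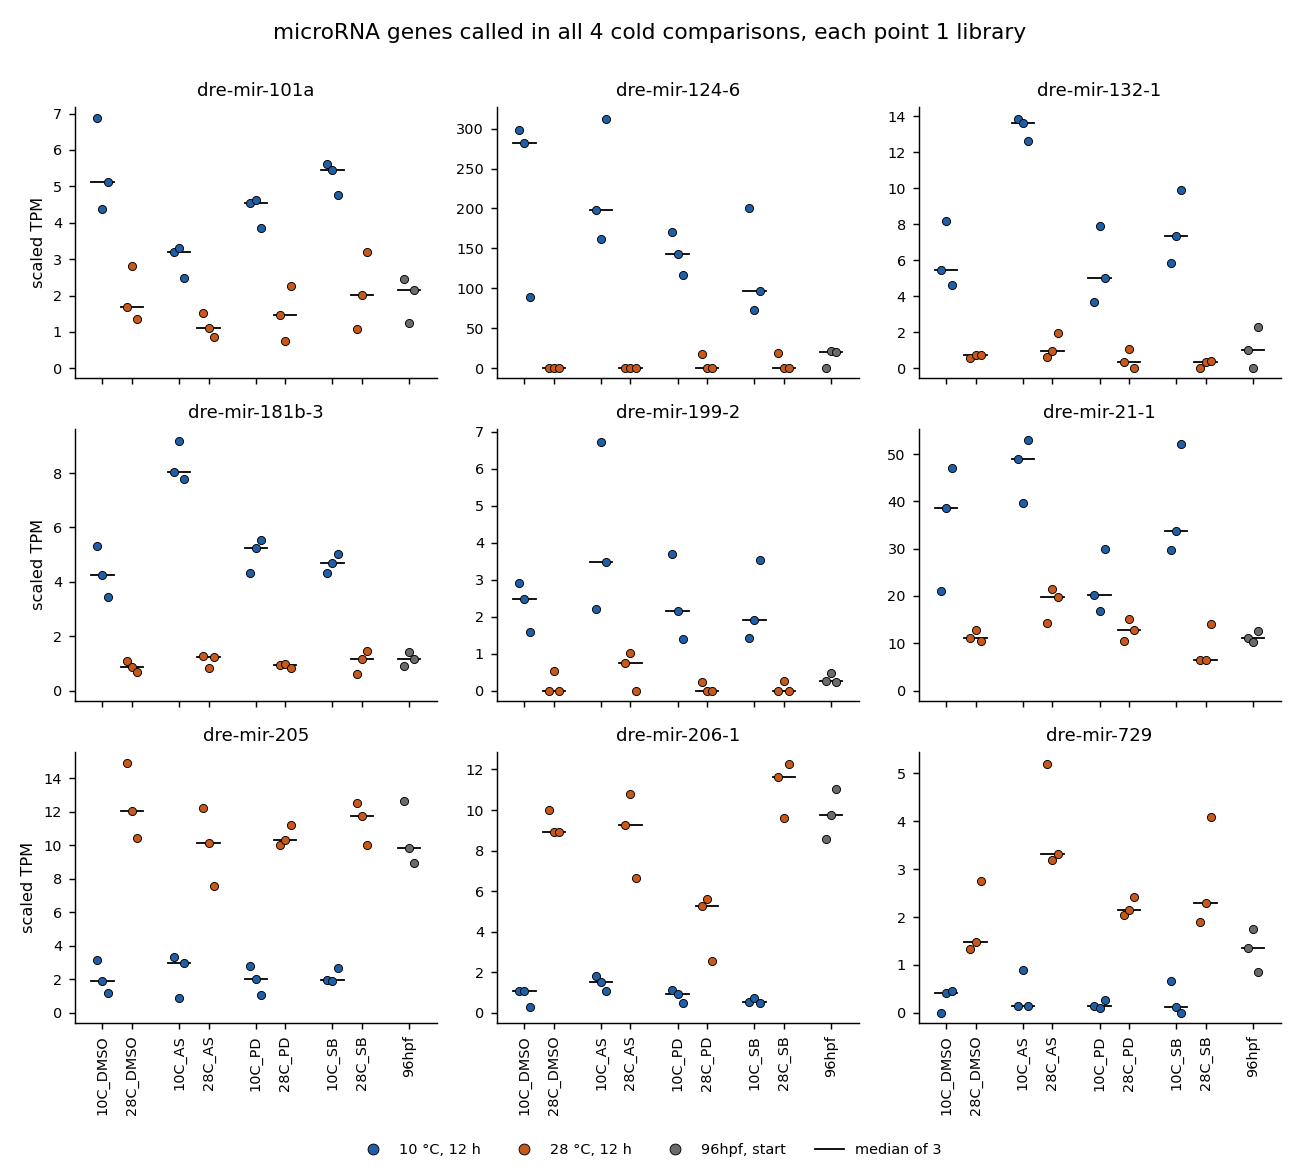
Scaled TPM of the 9 microRNA genes called in all 4 cold comparisons (vertical axes, linear, 1 scale per gene) in the 9 groups (horizontal axis). Each point is 1 library and each line the median of 3. Points at 10 °C sit above their 28 °C partners for the first 6 genes and below them for dre-mir-205, dre-mir-206-1 and dre-mir-729.

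Over the 4 treatments, the called member with the largest decrease by log2 change was dre-mir-206-1 (ENSDARG00000082396), one of the microRNAs of skeletal muscle, where it acts in muscle differentiation and regeneration in mammals. In DMSO it was at 1.05, 1.1 and 0.281 scaled TPM at 10 °C, against 10.0, 8.94 and 8.92 at 28 °C. The groups did not overlap in this or any other treatment. With AS1842856, dre-mir-206-1 was at 1.82, 1.52 and 1.07 scaled TPM at 10 °C, against 9.24, 10.8 and 6.65 at 28 °C. With PD0325901, dre-mir-206-1 had 1.14, 0.921 and 0.488 scaled TPM at 10 °C, against 5.27, 5.60 and 2.57 at 28 °C. With SB203580, dre-mir-206-1 lay at 0.534, 0.753 and 0.463 scaled TPM at 10 °C, against 11.6, 9.59 and 12.3 at 28 °C. The 28C_PD libraries were the lowest at 28 °C, while no library at 10 °C exceeded 1.82. Across all 4 treatments dre-mir-206-1 fell by 2.25 on the log2 scale (SE 0.11, adjusted p = 9.82e-14), and the change in single treatments lay between -2.94 with SB203580 and -1.53 with PD0325901. Of 24 gene identifiers of skeletal muscle markers, tnnt3a, a troponin, was called higher, and 1 identifier each of mylpfa, a myosin light chain, and pvalb2, a parvalbumin, lower. Over the 4 treatments that was 12.5% of the list, against 15.5% of all genes. The summed level of the muscle markers was 61111 to 76419 scaled TPM at 10 °C, against 52986 to 70837 at 28 °C, and the part of muscle content in the result was not tested. The other member of a muscle microRNA family, dre-mir-133c, was not called in any comparison and had 0.985 to 4.48 scaled TPM at 10 °C, against 0.952 to 4.07 at 28 °C.

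Next came dre-mir-205 (ENSDARG00000081646), a microRNA of stratified epithelium that is known in mammals for keeping the epithelial state. Its values in DMSO were 3.17, 1.87 and 1.20 scaled TPM at 10 °C, against 14.9, 12.0 and 10.4 at 28 °C. No library at 10 °C was above 3.33 and none at 28 °C below 7.56. With AS1842856, dre-mir-205 was at 3.33, 0.910 and 3.00 scaled TPM at 10 °C, against 12.2, 10.1 and 7.56 at 28 °C. With PD0325901, dre-mir-205 had 2.81, 2.03 and 1.05 scaled TPM at 10 °C, against 10.0, 10.3 and 11.2 at 28 °C. With SB203580, dre-mir-205 lay at 1.97, 1.89 and 2.67 scaled TPM at 10 °C, against 12.5, 11.7 and 10.0 at 28 °C. The decrease over the 4 treatments was -1.97 (SE 0.14, adjusted p = 3.81e-11) on the log2 scale, and in single treatments -2.16 to -1.75. Of 23 gene identifiers of epidermal markers, 5 were called higher (epcam, cldne, cldni, agr2 and ppl) and 1 lower (tp63, a transcription factor of basal epidermis). Over the 4 treatments that was 26.1% of the list, against 15.5% of all genes. The summed level of these markers was 10931 to 14262 scaled TPM at 10 °C, against 8254 to 12107 at 28 °C. Their part in the result was not tested.

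Levels of dre-mir-729 (ENSDARG00000081977) were low throughout, and it was in the table through groups at 28 °C alone. In DMSO it was at 0, 0.421 and 0.452 scaled TPM at 10 °C, against 1.34, 1.48 and 2.75 at 28 °C. At 10 °C, 2 libraries were listed at 0 and none exceeded 0.900. With AS1842856, dre-mir-729 was at 0.137, 0.900 and 0.133 scaled TPM at 10 °C, against 5.20, 3.18 and 3.31 at 28 °C. With PD0325901, dre-mir-729 had 0.133, 0.101 and 0.278 scaled TPM at 10 °C, against 2.04, 2.15 and 2.42 at 28 °C. With SB203580, dre-mir-729 lay at 0.674, 0.127 and 0 scaled TPM at 10 °C, against 1.91, 2.30 and 4.09 at 28 °C. The groups did not overlap in any treatment, and the highest library was 1 of 28C_AS. Over the 4 treatments the change was -1.50 (SE 0.13, adjusted p = 1.3e-09), and in single treatments -1.84 to -1.13.

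Of the members that rose in all 4 treatments, dre-mir-21-1 (ENSDARG00000082187) had the highest median scaled TPM apart from dre-mir-124-6, whose values came in coarse steps. It encodes a microRNA that is widely expressed and raised in injured and inflamed tissue in mammals. Its values in DMSO were 21.1, 38.6 and 46.9 scaled TPM at 10 °C, against 11.0, 12.8 and 10.6 at 28 °C. The groups did not overlap within any treatment. With AS1842856, dre-mir-21-1 was at 48.9, 39.7 and 52.9 scaled TPM at 10 °C, against 14.3, 21.4 and 19.7 at 28 °C. With PD0325901, dre-mir-21-1 had 20.2, 16.9 and 29.9 scaled TPM at 10 °C, against 10.5, 15.2 and 12.8 at 28 °C. With SB203580, dre-mir-21-1 lay at 29.8, 33.7 and 52.1 scaled TPM at 10 °C, against 6.53, 6.37 and 14.0 at 28 °C. Of the 4 groups at 10 °C, 10C_PD had the lowest median. Across all 4 treatments dre-mir-21-1 changed by 1.39 (SE 0.14, adjusted p = 2.16e-08), and in single treatments by 0.73 with PD0325901 to 2.03 with SB203580. The PD0325901 call (adjusted p = 0.0426) was lost with the deposited TPM (log2 change 0.57, adjusted p = 0.0955), with quantile normalization (0.66, adjusted p = 0.0594) and without 28C_PD replicate 1 or 3 or 10C_PD replicate 1 or 3, where the change was 0.51 to 0.78.

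An activity-regulated microRNA of neurons in mammals is encoded by dre-mir-132-1 (ENSDARG00000081190), which was in the table through groups at 10 °C alone. In DMSO it was at 5.47, 8.17 and 4.65 scaled TPM at 10 °C, against 0.577, 0.720 and 0.748 at 28 °C. Every library at 10 °C was above every library at 28 °C. With AS1842856, dre-mir-132-1 was at 13.8, 13.6 and 12.6 scaled TPM at 10 °C, against 0.616, 0.943 and 1.94 at 28 °C. With PD0325901, dre-mir-132-1 had 3.67, 7.91 and 5.03 scaled TPM at 10 °C, against 0.361, 1.09 and 0 at 28 °C. With SB203580, dre-mir-132-1 lay at 5.85, 7.35 and 9.90 scaled TPM at 10 °C, against 0, 0.360 and 0.394 at 28 °C. The 10C_AS libraries were the highest of the series. Over the 4 treatments dre-mir-132-1 rose by 2.44 (SE 0.17, adjusted p = 5.3e-11), and in single treatments by 2.05 to 2.79. Of 20 neuron markers, limma called 0 in that comparison, against 15.5% of all genes, with 11 at an unadjusted p under 0.05. Their summed level was 1353 to 1513 scaled TPM at 10 °C, against 1321 to 1466 at 28 °C, ranges that overlapped.

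The microRNAs made from dre-mir-181b-3 and its relatives act in lymphocyte development in mammals and are also expressed in brain and eye. In DMSO dre-mir-181b-3 (ENSDARG00000083588) was at 5.30, 4.26 and 3.43 scaled TPM at 10 °C, against 1.08, 0.881 and 0.665 at 28 °C. The ranges did not overlap in any treatment, and the gene was in the table through groups at 10 °C alone. With AS1842856, dre-mir-181b-3 was at 8.03, 9.18 and 7.77 scaled TPM at 10 °C, against 1.28, 0.828 and 1.22 at 28 °C. With PD0325901, dre-mir-181b-3 had 4.31, 5.23 and 5.54 scaled TPM at 10 °C, against 0.953, 0.980 and 0.818 at 28 °C. With SB203580, dre-mir-181b-3 lay at 4.33, 4.68 and 5.02 scaled TPM at 10 °C, against 0.625, 1.16 and 1.46 at 28 °C. Across all 4 treatments the change was 1.69 (SE 0.07, adjusted p = 1.61e-14), and in single treatments 1.47 to 2.15, largest with AS1842856. The other gene of the same microRNA, dre-mir-181b-1 (ENSDARG00000081145), was at 5.25, 5.30 and 5.97 scaled TPM in 10C_DMSO, against 3.41, 1.82 and 1.99 in 28C_DMSO. It was between 4.41 and 6.81 at 10 °C (median 5.41), against 1.82 to 3.41 at 28 °C (median 2.95), and the ranges did not overlap. It rose by 0.75 (SE 0.07, adjusted p = 5.16e-09) over the 4 treatments. It was called with DMSO, AS1842856 and SB203580, while with PD0325901 the change of 0.53 (adjusted p = 0.00385) was under the fold of 1.5, with 4.72, 4.41 and 5.37 scaled TPM at 10 °C, against 2.91, 3.21 and 2.98 at 28 °C.

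A microRNA of connective tissue and developing skeleton in vertebrates is encoded by dre-mir-199-2 (ENSDARG00000083179), which was near 0 at 28 °C. Its values in DMSO were 2.91, 2.47 and 1.60 scaled TPM at 10 °C, against 0, 0.522 and 0 at 28 °C. At 28 °C, 7 of 12 libraries were listed at 0, and none was at 10 °C. With AS1842856, dre-mir-199-2 was at 2.20, 6.73 and 3.48 scaled TPM at 10 °C, against 0.744, 1.00 and 0 at 28 °C. With PD0325901, dre-mir-199-2 had 3.68, 2.15 and 1.39 scaled TPM at 10 °C, against 0.246, 0 and 0 at 28 °C. With SB203580, dre-mir-199-2 lay at 1.42, 1.92 and 3.54 scaled TPM at 10 °C, against 0, 0.252 and 0 at 28 °C. Over the 4 treatments the change was 1.58 (SE 0.16, adjusted p = 1.37e-08), and in single treatments 1.51 to 1.66. These tests carry a selection, since the gene was in the table through groups at 10 °C alone. Of 11 gene identifiers of cartilage and bone markers, 4 were called higher over the 4 treatments (col11a2, matn1, col2a1a and matn3a) and none lower. That is 36.4% of the list, against 15.5% of all genes. Their summed level was 998 to 1233 scaled TPM at 10 °C, against 698 to 807 at 28 °C. The part of these markers in the dre-mir-199-2 result was not tested.

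In mammals the product of dre-mir-101a (ENSDARG00000082131) targets the histone methyltransferase Ezh2. In DMSO it was at 6.87, 4.38 and 5.11 scaled TPM at 10 °C, against 1.68, 2.81 and 1.36 at 28 °C. The groups did not overlap within a treatment, although the lowest library at 10 °C, of 10C_AS, lay below the highest at 28 °C, of 28C_SB. With AS1842856, dre-mir-101a was at 3.19, 3.31 and 2.47 scaled TPM at 10 °C, against 1.51, 1.1 and 0.871 at 28 °C. With PD0325901, dre-mir-101a had 4.55, 4.63 and 3.86 scaled TPM at 10 °C, against 1.47, 0.746 and 2.26 at 28 °C. With SB203580, dre-mir-101a lay at 5.62, 5.44 and 4.77 scaled TPM at 10 °C, against 1.08, 2.00 and 3.21 at 28 °C. The 3 values of 10C_AS were below those of the other groups at 10 °C. Across all 4 treatments dre-mir-101a rose by 1.06 (SE 0.12, adjusted p = 1.18e-07), and in single treatments by 0.89 to 1.15.

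For neurons the best known microRNA is encoded by the dre-mir-124 genes, and dre-mir-124-6 (ENSDARG00000083622) had the widest range of values of all members. Its values in DMSO were 298, 282 and 89.8 scaled TPM at 10 °C, and was listed at 0 in all 3 libraries at 28 °C. The 96hpf libraries were at 0, 21.4 and 20.8 scaled TPM. With AS1842856 it was at 198, 162 and 311 at 10 °C, and was again listed at 0 in all 3 libraries at 28 °C. With PD0325901, dre-mir-124-6 had 171, 144 and 117 scaled TPM at 10 °C, against 17.5, 0 and 0 at 28 °C. With SB203580, dre-mir-124-6 lay at 200.3, 72.5 and 96.5 scaled TPM at 10 °C, against 19.0, 0 and 0 at 28 °C. It passed the test in all 4 treatments (adjusted p = 1.85e-05 in DMSO, 9.65e-06 with AS1842856, 0.000366 with PD0325901 and 0.000737 with SB203580), and no fold is given because 10 of the 12 libraries at 28 °C were at 0. The gene was in the table through groups at 10 °C alone, so these tests carry that selection. Its values came in coarse steps: the lowest TPM above 0 was 19.0, 4 libraries lay between that and 22.8, and the other 12 at 70.1 or more.

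**Figure D2:**
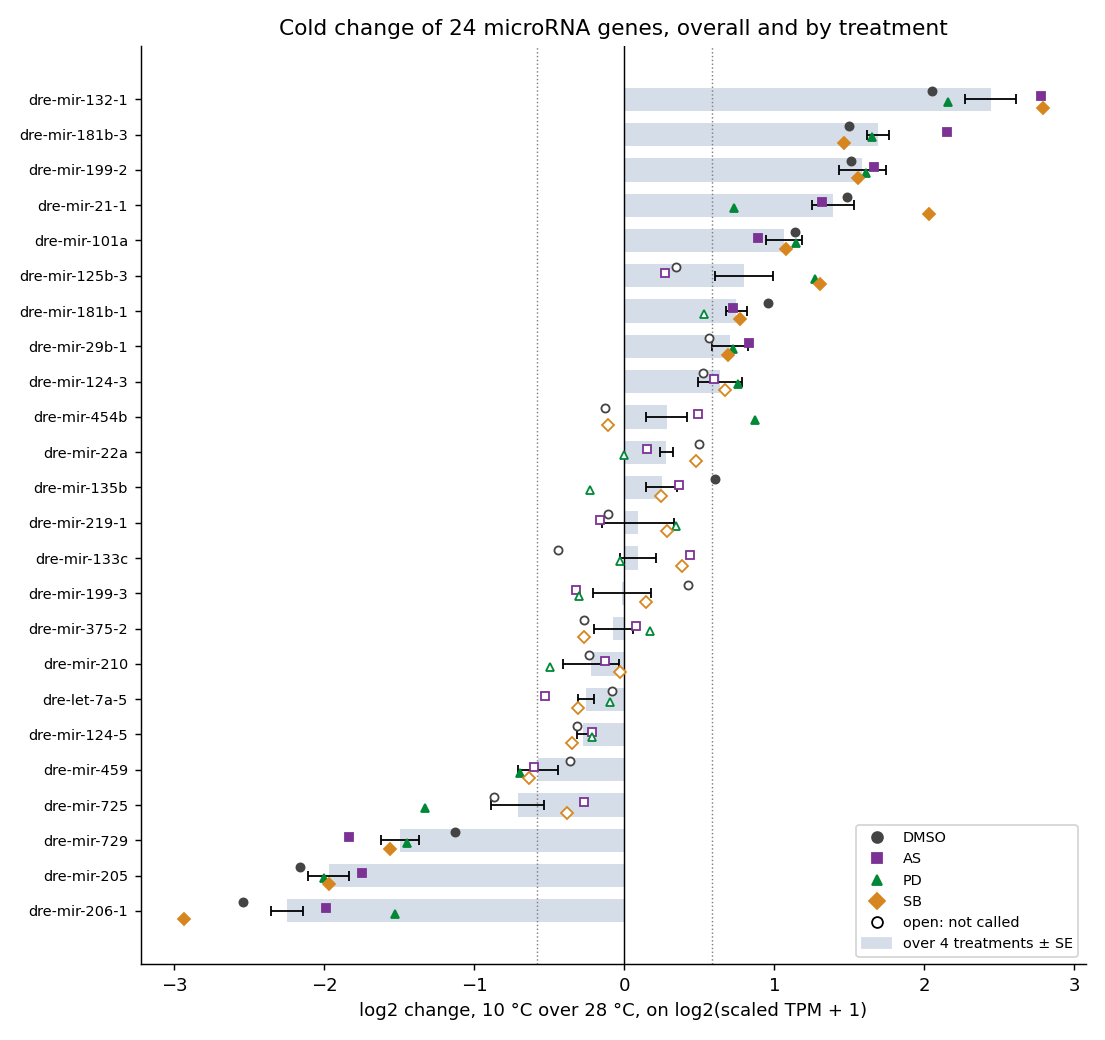
Log2 change at 10 °C over 28 °C (horizontal axis, on log2(scaled TPM + 1)) for the 24 members without coarse steps. Bars with error bars are the change over the 4 treatments ± SE, symbols the change in each treatment, filled where called, and dotted lines a fold of 1.5. The order runs from dre-mir-132-1 at 2.44 to dre-mir-206-1 at -2.25.

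A second set of members was called in some of the treatments. Levels of dre-mir-29b-1, whose product represses collagen genes in mammals, were at 0.782, 1.71 and 1.07 scaled TPM in 10C_AS, against 0.557, 0.140 and 0 in 28C_AS. With PD0325901, dre-mir-29b-1 had 1.47, 2.56 and 0.918 scaled TPM at 10 °C, against 0.674, 0.965 and 0.143 at 28 °C. With SB203580, it lay at 1.38, 1.79 and 1.36 at 10 °C, against 0.300, 0.821 and 0.575 at 28 °C. It was called in these 3 treatments, with log2 changes of 0.69 to 0.83, and with DMSO the change was 0.57 (adjusted p = 0.0622). Over the 4 treatments it rose by 0.70 (SE 0.12, adjusted p = 2.33e-05). As the gene was in the table through groups at 10 °C alone, these tests carry that selection. The call with PD0325901 was lost without 28C_PD replicate 3 or 10C_PD replicate 2, and that with SB203580 without 28C_SB replicate 1 or 10C_SB replicate 2, where the changes were 0.49 to 0.61.

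The dre-mir-125b-3 gene belongs to the lin-4 family, named for the first microRNA found in the worm, and its product represses p53 in zebrafish and human cells. With PD0325901 it was at 2.43, 0.821 and 2.93 scaled TPM at 10 °C, against 0.745, 0 and 0 at 28 °C. With SB203580 it had 2.55, 1.65 and 1.25 scaled TPM at 10 °C, against 0.407, 0 and 0 at 28 °C. It was called in these pairs, at 1.27 (SE 0.39, adjusted p = 0.0107) and 1.30 (SE 0.39, adjusted p = 0.00974). The gene was in the table through a group at 10 °C alone, 10C_SB, and both tests carry that selection. In DMSO it was at 0, 0.468 and 1.46 at 10 °C, against 0, 0.767 and 0 at 28 °C, where the groups overlapped and the change was 0.34 (adjusted p = 0.508). Without 10C_PD replicate 3 the PD0325901 change was 1.05 (adjusted p = 0.0576).

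The other calls were in a single treatment. With PD0325901, dre-mir-124-3 was at 2.06, 1.98 and 3.14 scaled TPM at 10 °C, against 1.19, 1.04 and 0.760 at 28 °C (log2 change 0.76, SE 0.29, adjusted p = 0.0402). With PD0325901, dre-mir-454b was at 1.07, 1.5 and 1.89, against 0.254, 0.256 and 0.548 (0.87, SE 0.27, adjusted p = 0.0131). In DMSO, dre-mir-135b was at 2.67, 2.22 and 2.09 at 10 °C, against 1.78, 0.727 and 1.16 at 28 °C (0.61, SE 0.21, adjusted p = 0.0237). These 3 were higher in the cold, and within the called pair no libraries overlapped. Of them, dre-mir-124-3 and dre-mir-454b were in the table through groups at 10 °C alone, dre-mir-454b through 10C_PD only. Both tests carry that selection, and that of dre-mir-454b compares the very group that met the minimum. Lower in the cold with PD0325901 were dre-mir-725, at 0.697, 0 and 1.1 scaled TPM, against 2.63, 2.23 and 3.81 (-1.33, SE 0.35, adjusted p = 0.00391), and dre-mir-459, at 2.09, 0.916 and 1.58, against 2.25, 4.03 and 3.01 (-0.70, SE 0.27, adjusted p = 0.0414). Across all 4 treatments dre-mir-124-3 (0.64, adjusted p = 0.000654) and dre-mir-725 (-0.71, adjusted p = 0.00119) were also called, the dre-mir-124-3 call being lost with the deposited TPM (0.58) and without 28C_SB replicate 1 (0.56) or 10C_SB replicate 2 (0.58). For 4 of the 5 single-treatment calls, all but dre-mir-725, the call was lost when some single libraries were left out: the changes then were 0.60 to 0.82 for dre-mir-124-3 (any of 28C_PD replicates 1, 2 and 3 or 10C_PD replicates 1 and 3), 0.76 for dre-mir-454b (10C_PD replicate 3), 0.44 to 0.60 for dre-mir-135b (28C_DMSO replicate 2 or 3 or 10C_DMSO replicate 1) and -0.73 to -0.51 for dre-mir-459 (28C_PD replicate 2 or 3 or 10C_PD replicate 2 or 3).

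Values of 6 members came in coarse steps, with some libraries at 0 and no other value under 5 TPM: dre-mir-124-6, dre-mir-153b, dre-mir-204-2, dre-mir-2184, dre-mir-429b and dre-mir-7b. Within 1 library, 41 of 108 pairs of their deposited values above 0 were in a whole-number ratio, within 1%. In 28C_SB replicate 3, for example, dre-mir-2184 and dre-mir-429b were both at 22.8 TPM and dre-mir-7b at 91.3. The number of reads behind such values was not examined. Of the 6, dre-mir-153b, a neuronal microRNA, was listed at 0 in all 12 libraries at 28 °C. At 10 °C it was at 19.7, 0 and 10.2 scaled TPM in 10C_DMSO, 26.9, 0 and 16.0 in 10C_AS, 0, 8.70 and 17.7 in 10C_PD and 8.35, 8.78 and 24.1 in 10C_SB. It was above 0 in 9 of 12 libraries at 10 °C, and in 96hpf it was at 0, 0 and 7.55. It passed the test with AS1842856 (adjusted p = 0.0388), with SB203580 (adjusted p = 0.0136) and over the 4 treatments (adjusted p = 0.000137). Being in the table through a group at 10 °C alone, 10C_SB, it carries that selection into these tests. The SB203580 test compares the very group that met the minimum.

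Likewise, dre-mir-2184 was listed at 0 in all 3 libraries of 96hpf, 28C_DMSO, 28C_AS and 28C_PD. In 10C_DMSO it was at 36.1, 0 and 28.1 scaled TPM, in 10C_AS at 0, 72.1 and 71.8 and in 10C_PD at 63.2, 159 and 48.8. With SB203580, dre-mir-2184 had 0, 161 and 64.4 at 10 °C, against 0, 0 and 22.9 at 28 °C. It was above 0 in 9 of 12 libraries at 10 °C, against 1 of 12 at 28 °C, and passed the test with AS1842856 (adjusted p = 0.048), with PD0325901 (adjusted p = 0.0045) and over the 4 treatments (adjusted p = 0.000186). No fold is given for dre-mir-153b or dre-mir-2184, and the AS1842856 call of each was lost without any of 5 of the 6 libraries (adjusted p = 0.0758 to 0.191). The SB203580 call of dre-mir-153b was lost without 10C_SB replicate 3 (adjusted p = 0.0593). Like dre-mir-153b, dre-mir-2184 was in the table through a group at 10 °C alone, here 10C_PD, and its tests carry that selection. Its PD0325901 test compares the very group that met the minimum. The remaining 3 of the 6 were called in no comparison. Of them, dre-mir-204-2, from a family of the eye's pigment epithelium, was above 0 in 3 of 12 libraries at 10 °C, 4 of 12 at 28 °C and 3 of 3 at 96hpf. The gene dre-mir-429b, of an epithelial family, was above 0 in 5 of 12 libraries at 10 °C, against 9 of 12 at 28 °C.

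**Figure D3:**
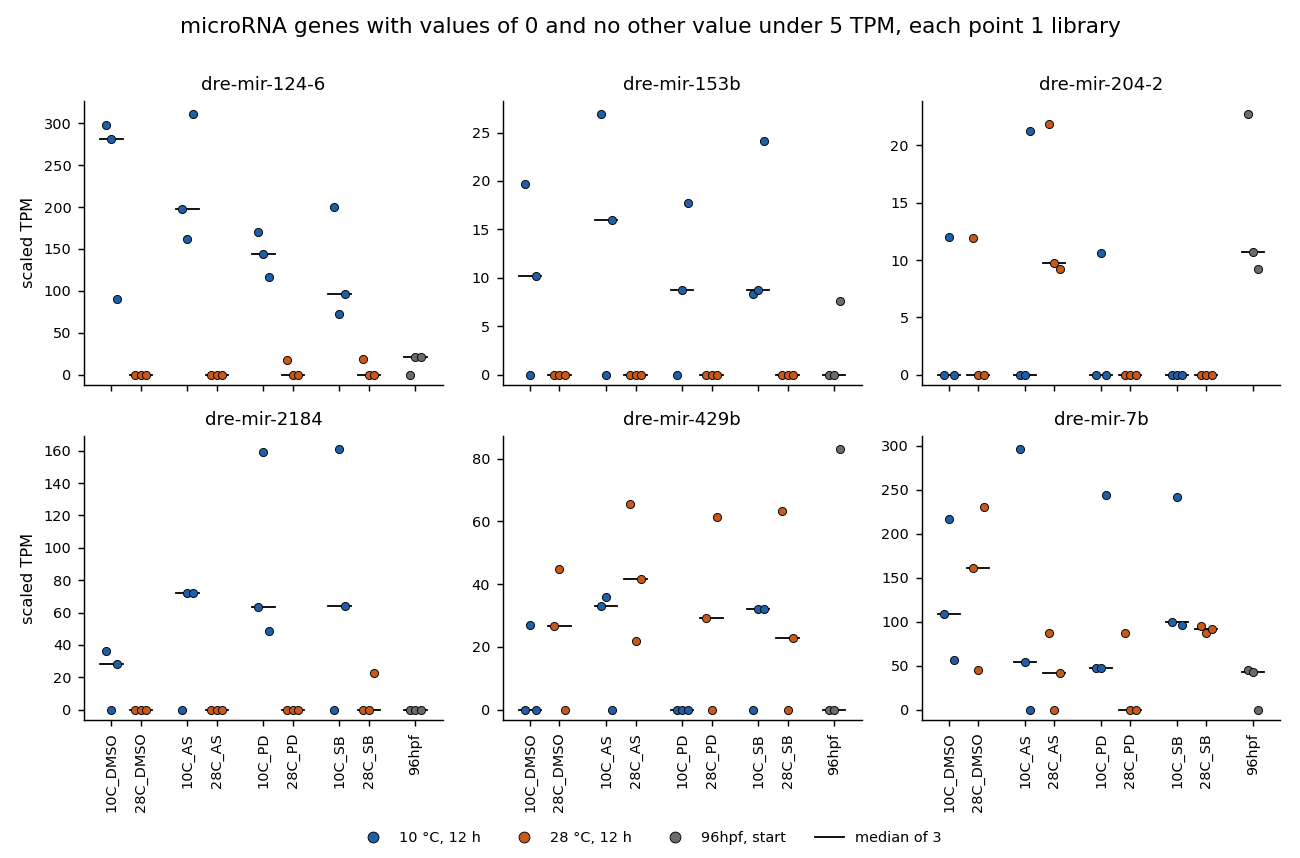
Scaled TPM (vertical axes, linear, 1 scale per gene) of the 6 microRNA genes with coarse steps in the 9 groups (horizontal axis). Each point is 1 library and each line the median of 3. Most points at 28 °C lie at 0 for dre-mir-124-6, dre-mir-153b and dre-mir-2184, while zeros are spread over both temperatures for dre-mir-204-2, dre-mir-429b and dre-mir-7b.

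No comparison called 11 of the 30 members. The 5 of them with the highest median scaled TPM were dre-mir-7b at 0 to 296 scaled TPM (median 87.3, in coarse steps), dre-mir-124-5 at 26.5 to 43.6 scaled TPM (median 34.3), dre-mir-22a at 16.7 to 30.0 scaled TPM (median 23.9), dre-mir-429b at 0 to 83.1 scaled TPM (median 22.9, in coarse steps) and dre-mir-219-1, of an oligodendrocyte microRNA, at 0.502 to 9.80 scaled TPM (median 3.84), over the 27 libraries. Among them dre-mir-124-5, dre-mir-22a and dre-let-7a-5 differed between temperatures by less than a fold of 1.5: the changes over the 4 treatments were -0.27 (SE 0.04, adjusted p = 1.11e-05), 0.28 (SE 0.05, adjusted p = 1.65e-05) and -0.25 (SE 0.05, adjusted p = 0.000253). The hypoxia-induced microRNA gene dre-mir-210 was at 0.854 to 3.78 scaled TPM at 10 °C, against 1.09 to 4.64 at 28 °C. The pancreatic islet microRNA gene dre-mir-375-2 was at 2.07 to 4.78 at 10 °C, against 1.27 to 5.26 at 28 °C. The ranges of both overlapped widely.

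Some members are copies that give the same mature microRNA by name. Of the pairs below, dre-mir-124-3, dre-mir-181b-3 and dre-mir-199-2 were in the table through groups at 10 °C alone, so their differences from the other copy are described without a test. Reads from such copies could be divided between them by the assignment, so single copies are uncertain. Among the dre-mir-124 genes, dre-mir-124-5 was between 26.5 and 36.8 at 10 °C (median 30.7), against 32.0 to 43.6 at 28 °C (median 37.2). The range of dre-mir-124-3 was between 0.944 and 3.60 at 10 °C (median 2.06), against 0.391 to 1.85 at 28 °C (median 1.19). A further copy, dre-mir-124-6, was at 72.5 to 311 at 10 °C, against 0 to 19.0 at 28 °C. That copy was in the table through groups at 10 °C alone and came in coarse steps, and no difference is given for it. The log2 difference of dre-mir-124-3 minus dre-mir-124-5 within a library averaged -3.29 ± 0.31 at 10 °C and -4.20 ± 0.31 at 28 °C (SD, n = 12 each), which differ by 0.91. For dre-mir-181b-3 minus dre-mir-181b-1 it averaged -0.01 ± 0.35 at 10 °C and -0.95 ± 0.17 at 28 °C (SD, n = 12 each), which differ by 0.94, and both copies were higher at 10 °C. For dre-mir-199-2 minus dre-mir-199-3 it averaged 0.58 ± 0.68 at 10 °C and -1.01 ± 0.74 at 28 °C (SD, n = 12 each), which differ by 1.60. The dre-mir-199-3 gene itself was between 0.527 and 2.61 at 10 °C (median 1.33), against 0 to 3.32 at 28 °C (median 2.14) and changed by -0.01 (SE 0.19, adjusted p = 0.954). At 28 °C, dre-mir-199-2 was listed at 0 in 7 of 12 libraries and dre-mir-199-3 in 2 of 12, and at 10 °C neither was at 0 in any library.

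**Figure D4:**
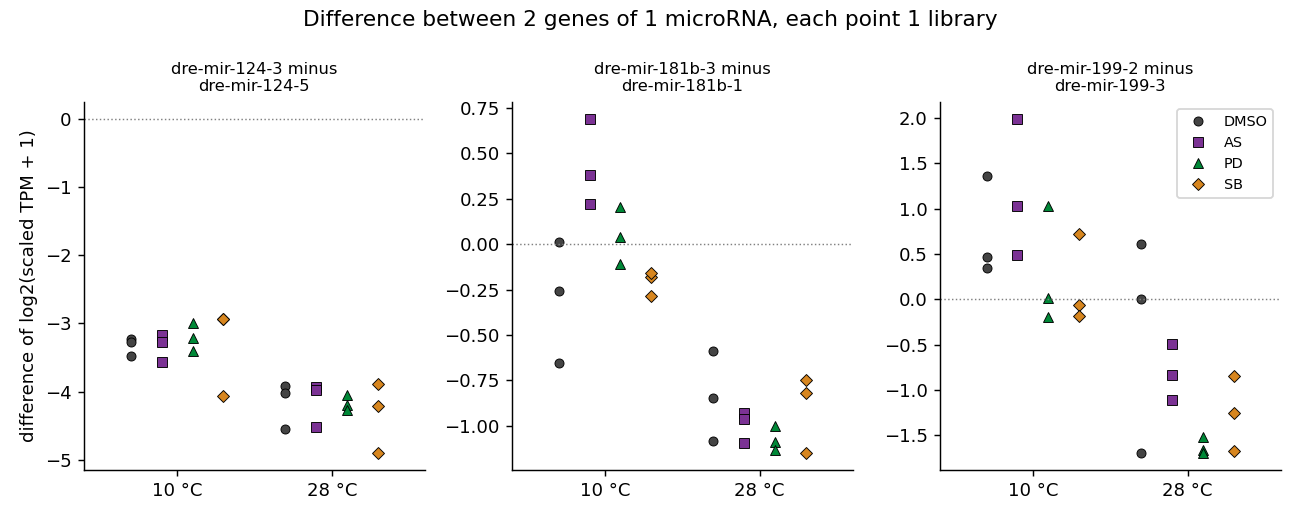
Difference of log2(scaled TPM + 1) between copies of 1 microRNA (vertical axes) at 10 °C and at 28 °C (horizontal axis). Each point is 1 library, with 12 at each temperature, and symbols mark the treatment. The mean differences are -3.29 against -4.20 for the dre-mir-124 pair, -0.01 against -0.95 for the dre-mir-181b pair and 0.58 against -1.01 for the dre-mir-199 pair.

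Many microRNA genes lie inside other genes, and the RefSeq annotation (assembly GRCz12tu, used for names alone) placed 22 of the 29 members it matched within another gene. Strand was not given there, so a gene named here may be transcribed in the other direction. The genes that contain dre-mir-206-1, dre-mir-132-1, dre-mir-181b-1, dre-mir-181b-3, dre-mir-124-3, dre-mir-125b-3 and dre-mir-725 were not found by name in the expression table. The surrounding genes below are the containing genes of called members that were found. Genes that lie nearby without containing a member are not given. The semaphorin receptor gene plxna2, which contains dre-mir-205, was at 5.39 to 7.65 scaled TPM at 10 °C, against 6.13 to 7.64 at 28 °C, and was not called (adjusted p = 0.234). The gene of the neuroendocrine phosphatase family around dre-mir-153b, ptprnb, was at 1.97 to 3.82 at 10 °C, against 1.93 to 3.57 at 28 °C (adjusted p = 0.881). Of the genes that contain dre-mir-199-2, the dynamin gene dnm1a was at 14.4 to 21.9 scaled TPM at 10 °C, against 9.17 to 13.4 at 28 °C, a change of 0.61 (SE 0.07, adjusted p = 4.02e-08). The other, rabepk, was at 1.37 to 2.86, against 2.87 to 4.75, with a change of -0.58 (SE 0.08, adjusted p = 6.71e-07) that did not reach a fold of 1.5. Around dre-mir-459, the blood transcription factor gene runx1 was at 3.97 to 4.79, against 2.29 to 3.47, a change of 0.52 (SE 0.05, adjusted p = 3.34e-09) that also stayed under that fold. The gene ENSDARG00000086724, which contains dre-mir-29b-1, was at 5.29 to 9.19 scaled TPM at 10 °C, against 3.51 to 8.06 at 28 °C, with a change of 0.33 (SE 0.10, adjusted p = 0.00701), likewise under it. The microRNA and the surrounding gene had changes of opposite sign for dre-mir-459 with runx1 and dre-mir-199-2 with rabepk, and of the same sign for dre-mir-29b-1 with its surrounding gene and dre-mir-199-2 with dnm1a, whose call was lost with quantile normalization (0.55), with the deposited TPM (0.54), and without 28C_DMSO replicate 1 (0.57) or 10C_SB replicate 1 (0.58).

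The 96hpf larvae served to ask whether the difference from 28C_DMSO also held against the start of the exposure. This comparison shares the 10C_DMSO libraries with the cold comparison in DMSO. The 96hpf larvae had no DMSO and were collected 12 h earlier, so within it cold, vehicle and time cannot be told apart. In 10C_DMSO against 96hpf, 10 of 30 members were called (7 higher and 3 lower, where 12.4% of all genes were called, 7.14% higher and 5.27% lower), and the median log2 change was 0.07 over the 30 members and -0.10 over the 17, against 0.00 for all genes. The 3 lower genes were dre-mir-206-1 (-2.60, SE 0.22, adjusted p = 6.19e-09), dre-mir-205 (-1.93, SE 0.27, adjusted p = 1.01e-05) and dre-mir-729 (-0.85, SE 0.26, adjusted p = 0.0136). In 96hpf they were at 8.58, 9.74 and 11.0, at 12.6, 9.80 and 8.92 and at 1.36, 1.74 and 0.858 scaled TPM, in the order just given. The higher genes included dre-mir-132-1, at 5.47, 8.17 and 4.65 scaled TPM in 10C_DMSO, against 0.997, 0 and 2.32 in 96hpf (1.89, SE 0.34, adjusted p = 0.000195). For dre-mir-21-1 the values were 21.1, 38.6 and 46.9 scaled TPM in 10C_DMSO, against 11.1, 10.4 and 12.6 in 96hpf (1.5, SE 0.28, adjusted p = 0.000302). For dre-mir-181b-3 they were 5.30, 4.26 and 3.43 scaled TPM in 10C_DMSO, against 0.890, 1.43 and 1.16 in 96hpf (1.29, SE 0.15, adjusted p = 6.19e-07). The groups did not overlap for these 3 genes. The other 4 were dre-mir-199-2 (1.31, adjusted p = 0.00257), dre-mir-101a (1.13, adjusted p = 0.000998), dre-mir-181b-1 (0.60, adjusted p = 0.00194) and dre-mir-124-6 (adjusted p = 0.00344). Of the higher genes, dre-mir-132-1, dre-mir-181b-3, dre-mir-199-2 and dre-mir-124-6 were in the table through groups at 10 °C alone. Of the lower genes, dre-mir-729 was there through groups at 28 °C alone. Their tests carry that selection, and among the 17 members 3 were called higher and 2 lower. The dre-mir-181b-1 call was lost with the deposited TPM (0.47) and without 96hpf replicate 3 (0.51) or 10C_DMSO replicate 3 (0.55). That of dre-mir-729 was lost without 96hpf replicate 2 (-0.72) or 10C_DMSO replicate 1 (-0.67).

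Over the same 12 h at 28 °C, 28C_DMSO against 96hpf, limma called 0 of 30 members, with 7 at an unadjusted p under 0.05 (2.75% of all genes were called). The member nearest the threshold by adjusted p was dre-mir-22a, at 21.8, 16.7 and 18.6 scaled TPM in 28C_DMSO, against 25.4, 23.5 and 21.1 in 96hpf (adjusted p = 0.0544), where the groups overlapped. Leaving out 96hpf replicate 1 gave 1 call, lower in 28C_DMSO. The median log2 change of the members was -0.09, against 0.01 for all genes.

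The next question was whether blocking Foxo1, MEK or p38 moved microRNA gene transcripts, and each inhibitor was compared with DMSO at the same temperature. These comparisons share the DMSO libraries of a temperature. At 10 °C, AS1842856 changed 1 of 30 members (0.925% of all genes were called), PD0325901 changed 0 of 30 with 4 at an unadjusted p under 0.05 (0.382% of all genes) and SB203580 changed 0 of 30 with 2 at an unadjusted p under 0.05 (0.0207% of all genes). The 1 call was dre-mir-181b-3, at 8.03, 9.18 and 7.77 scaled TPM in 10C_AS, against 5.30, 4.26 and 3.43 in 10C_DMSO, a change of 0.82 (SE 0.15, adjusted p = 0.00378). This call was lost in a limma fit of the compared groups alone (0.82, adjusted p = 0.134) and with a pseudocount of 5 (0.52). The groups did not overlap. At 28 °C the same gene was at 1.28, 0.828 and 1.22 in 28C_AS, against 1.08, 0.881 and 0.665 in 28C_DMSO, a change of 0.17 (SE 0.15, adjusted p = 0.419). The difference between the changes at 10 °C and 28 °C was 0.65 (SE 0.21, adjusted p = 0.0299), and it was the 1 member called in that interaction (10.8% of all genes were). As the gene was in the table through groups at 10 °C alone, the interaction test carries that selection. The low values at 28 °C understate a change there. The interaction call was lost without any of 6 of the 12 libraries, with values of 0.53 to 0.65 and adjusted p = 0.0504 to 0.0876 (28C_DMSO replicates 1 and 2, 28C_AS replicate 2, 10C_DMSO replicates 2 and 3, and 10C_AS replicate 2). Not called at 10 °C was dre-mir-132-1, at 13.8, 13.6 and 12.6 in 10C_AS, against 5.47, 8.17 and 4.65 in 10C_DMSO (1.05, SE 0.34, adjusted p = 0.0919), groups that did not overlap. The log2 change of AS1842856 at 10 °C was above 0 for 25 of the 30 members, with a median of 0.29, and for 13 of the 17 that met the minimum at both temperatures, with a median of 0.14, against 0.00 for all genes.

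At 28 °C, AS1842856 changed 1 of 30 members, where 12.2% of all genes were called. It was dre-mir-729, at 5.20, 3.18 and 3.31 scaled TPM in 28C_AS, against 1.34, 1.48 and 2.75 in 28C_DMSO (0.79, SE 0.26, adjusted p = 0.0203). The groups did not overlap. The call was lost without 28C_DMSO replicate 1 (0.66) or 2 (0.70) or 28C_AS replicate 1 (0.61). At 10 °C its values were 0.137, 0.900 and 0.133 in 10C_AS, against 0, 0.421 and 0.452 in 10C_DMSO, and the difference between the changes was -0.71 (SE 0.36, adjusted p = 0.181). The median log2 change of the 30 members at 28 °C was 0.20, against -0.01 for all genes.

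PD0325901 changed 1 of 30 members at 28 °C (1.49% of all genes were called). It was the muscle gene dre-mir-206-1, at 5.27, 5.60 and 2.57 scaled TPM in 28C_PD, against 10.0, 8.94 and 8.92 in 28C_DMSO (-0.96, SE 0.22, adjusted p = 0.00821). The highest library with PD0325901 was below the lowest with DMSO. Without 28C_PD replicate 3, the lowest, the change was -0.68 (adjusted p = 0.0699). The call was also lost in a limma fit of the compared groups alone (-0.96, adjusted p = 0.129). Of the 24 muscle marker identifiers, limma called 0 in this comparison, with 9 at an unadjusted p under 0.05, and the summed level of the muscle markers was 57588 to 60512 scaled TPM in 28C_PD, against 64766 to 70837 in 28C_DMSO. Their part in this result was not tested. In the cold, where the gene was low, its values were 1.14, 0.921 and 0.488 in 10C_PD, against 1.05, 1.1 and 0.281 in 10C_DMSO (0.05, SE 0.22, adjusted p = 0.955). The difference between these changes was 1.01 (SE 0.31, adjusted p = 0.0704), and in the interaction of PD0325901 and temperature limma called 0 of 30 members, with 5 at an unadjusted p under 0.05 (1.62% of all genes were called). For dre-mir-21-1, at 20.2, 16.9 and 29.9 in 10C_PD, against 21.1, 38.6 and 46.9 in 10C_DMSO, the change at 10 °C was -0.62 (SE 0.28, adjusted p = 0.369) and its difference from that at 28 °C -0.76 (SE 0.40, adjusted p = 0.347).

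SB203580 changed 0 of 30 members at 28 °C, with 2 at an unadjusted p under 0.05 (0.0207% of all genes were called), and limma called 0 in its interaction with temperature, with 1 at an unadjusted p under 0.05 (0.0290% of all genes). With this inhibitor dre-mir-206-1 was at 11.6, 9.59 and 12.3 scaled TPM in 28C_SB, against 10.0, 8.94 and 8.92 in 28C_DMSO, and dre-mir-181b-3 at 4.33, 4.68 and 5.02 in 10C_SB, against 5.30, 4.26 and 3.43 in 10C_DMSO. The ranges overlapped for dre-mir-206-1 and for dre-mir-181b-3.

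Proteins that make and use microRNAs were followed through a list of 35 genes, of which 23 were in the table under 27 gene identifiers. The RNA helicase gene ddx5, a cofactor of Drosha, was at 427, 408 and 414 scaled TPM in 10C_DMSO, against 189, 206 and 203 in 28C_DMSO. It rose in all 4 cold comparisons and over the 4 treatments by 0.96 (SE 0.02, adjusted p = 4.32e-19), with 0.66 under PD0325901, where the call was lost with the deposited TPM (0.50) and quantile normalization (0.47). The Argonaute gene ago4 was at 14.8, 13.0 and 11.3 in 10C_DMSO, against 22.7, 18 and 19.6 in 28C_DMSO, and fell in all 4 (-0.63 over the 4 treatments, SE 0.04, adjusted p = 6.66e-11), with the calls in DMSO, AS1842856 and SB203580 lost without single libraries, where the changes were -0.57 to -0.49: 28C_DMSO replicate 1 or 10C_DMSO replicate 3, 28C_AS replicate 2 or 3 or 10C_AS replicate 3, and 10C_SB replicate 3. Over the 4 treatments these 2 of the 27 (7.41%) were called, against 15.5% of all genes, and the median log2 change of the list was 0.03, against -0.01 for all genes.

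In single treatments, 3 of the 27 were called higher and 2 lower with DMSO (15.8% of all genes were called), 2 higher and 4 lower with AS1842856 (22.4%), 2 higher and 2 lower with PD0325901 (17.5%), and 2 higher and 1 lower with SB203580 (16.2%). The shares of the list called were 18.5%, 22.2%, 14.8% and 11.1% in the same order. The median log2 changes of the list were 0.04, -0.21, 0.05 and 0.09, against -0.005 to -0.002 for all genes. The Drosha nuclease gene drosha was at 4.43, 4.12 and 4.35 scaled TPM in 10C_AS, against 7.98, 7.47 and 7.92 in 28C_AS (-0.73, SE 0.08, adjusted p = 1.13e-07), and it was also called lower with PD0325901 (-0.66, SE 0.08, adjusted p = 7.19e-07). The Dicer partner genes prkra (-1.13, SE 0.07, adjusted p = 2.29e-11) and tarbp2 (-0.73, SE 0.09, adjusted p = 9.98e-07) were called lower in the cold with AS1842856. Mean scaled TPM of prkra was 7.85 in 10C_AS and 18.4 in 28C_AS, against 8.36 in 10C_DMSO and 11.0 in 28C_DMSO. For tarbp2 the means were 8.34 in 10C_AS and 14.4 in 28C_AS, against 8.82 in 10C_DMSO and 10.6 in 28C_DMSO. Both genes thus differed between AS1842856 and DMSO mainly at 28 °C. The Argonaute gene ago3b was called higher with DMSO (0.75, SE 0.13, adjusted p = 9.49e-05) and SB203580 (0.73, SE 0.13, adjusted p = 0.000116), and tnrc6c1, a silencing partner of Argonaute, with AS1842856 (0.72, SE 0.08, adjusted p = 1.44e-07). The remaining calls were hnrnpa1a higher (0.63, SE 0.04, adjusted p = 7.2e-11) and tut4, a uridylyltransferase gene, lower (-1.13, SE 0.38, adjusted p = 0.0236) with DMSO, and 1 of 2 identifiers of srsf3a higher with PD0325901 (1.70, SE 0.52, adjusted p = 0.011). The hnrnpa1a call was lost with the deposited TPM (0.57) and quantile normalization (0.39), that of tut4 without 28C_DMSO replicate 1 or 2 or 10C_DMSO replicate 2 or 3 (-1.06 to -0.71), and that of srsf3a without 28C_PD replicate 3 (1.43) or 10C_PD replicate 2 (1.25). At 28 °C, AS1842856 raised 3 of the 27 (12.2% of all genes were called): 1 of 2 identifiers of dicer1 (0.68, SE 0.07, adjusted p = 1.67e-07), prkra (0.68, SE 0.07, adjusted p = 1.28e-07) and 1 of 2 of srrt (0.64, SE 0.10, adjusted p = 4.39e-05), which was lost without 28C_AS replicate 3 (0.57). The dicer1 identifier was at 9.72, 9.63 and 10.4 scaled TPM in 28C_AS, against 5.07, 6.17 and 6.32 in 28C_DMSO. The median log2 change of the list with AS1842856 at 28 °C was 0.30, against -0.01 for all genes. In 10C_DMSO against 96hpf, where 12.4% of all genes were called, ddx5 was called higher (0.82, SE 0.05, adjusted p = 1.08e-11) and the srsf3a identifier lower (-1.49, SE 0.52, adjusted p = 0.0306), the srsf3a call being lost without any of 96hpf replicates 2 and 3 and 10C_DMSO replicates 2 and 3 (-1.49 to -1.27). The AS1842856 change at 10 °C minus that at 28 °C was called for 2 of the 27, both negative (10.8% of all genes were called): prkra (-0.76, SE 0.10, adjusted p = 7.67e-06) and hnrnpa1b (-0.66, SE 0.09, adjusted p = 2.4e-05). The RNA-binding protein gene hnrnpa1b was at 137, 127 and 132 scaled TPM in 10C_AS, against 167, 152 and 167 in 10C_DMSO, and at 185, 177 and 185 in 28C_AS, against 153, 128 and 145 in 28C_DMSO. Its call was lost without 28C_DMSO replicate 2 (-0.58). The median of the AS1842856 change at 10 °C minus that at 28 °C was -0.33 over the list, against 0.01 for all genes.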

How the data were processed

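RNA-seq was made on 27 libraries, 3 in each of 9 groups taken from the sample titles. The authors assigned reads to Ensembl release 101 cDNA with Salmon 0.13.1, summed them to genes with tximport and deposited TPM values. All 24101 genes met the authors' minimum of 1 TPM in all replicates of 1 group, so 0 were removed here. Values were divided by median-of-ratios size factors per library. In limma 3.58.1 (R 4.3.3, trended prior, 18 residual degrees of freedom), all 9 group means of log2(scaled TPM + 1) were estimated in 1 fit. P-values are two-sided and adjusted by Benjamini-Hochberg over all genes. Differences between copies of 1 microRNA were computed in Python 3.11.15 and are given with no test. Members, lists and tests were chosen with earlier results of these data known.

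Library values were given for members called in any comparison, and every called gene of the microRNA biogenesis and silencing list was named. Of the members never called, the 5 with the highest median scaled TPM were named. Genes that contain a called member and were found by name in the expression table were named, without regard to strand. Genes that only lie nearby were not. The fits were tested on simulated data with normal noise, and changes were added only to genes above a minimum mean level. Recovery of changes in low genes, as many members are, was therefore not tested. Alternatives were TPM as deposited, quantile normalization, pseudocounts of 0.5 and 5 in place of 1, a filter on group means (at least 5 scaled TPM in 1 group), the groups compared alone, a replicate block, array weights and leaving out each library. With TPM as deposited, the median log2 change of all genes was -0.14 in 10C_PD against 28C_PD, 0.12 in 28C_PD against 28C_DMSO and -0.14 in 10C_DMSO against 96hpf.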

Additional observations from a re-analysis of the deposited data

Results flagged for a closer look

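The change of dre-mir-181b-3 with AS1842856 differed between temperatures by the interaction term: the change at 10 °C exceeded that at 28 °C by 0.65 on the log2 scale (limma, adjusted p = 0.0299). The call was lost with a pseudocount of 0.5 (adjusted p = 0.0785) or 5, with the groups compared alone (adjusted p = 0.0587) and without some single libraries. Because dre-mir-181b-3 was in the table through groups at 10 °C alone, the interaction test carries that selection. No library at 28 °C exceeded 1.46 scaled TPM, a level at which the log2 scale understates changes. Values of dre-mir-181b-3 in the 4 groups are given above.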

How the results depend on the processing

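None of the 83 calls of members changed direction under any alternative. Of these calls, 78 were kept with TPM as deposited, 81 with quantile normalization, 81 with a pseudocount of 0.5, 46 with a pseudocount of 5, 74 with the groups compared alone, 83 with array weights and 66 whichever library was left out. All 56 that had a value were kept under the filter on a mean of at least 5 scaled TPM. The losses with a pseudocount of 5 follow from its construction, since it shrinks the change of low genes.

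With a pseudocount of 5 the number of members called was 7 in the cold with DMSO (main 11), 7 with PD0325901 (main 16), 7 with SB203580 (main 13), 8 over the 4 treatments (main 16), 6 in 10C_DMSO against 96hpf (main 10), 0 in 28C_AS against 28C_DMSO (main 1) and 1 in the PD0325901 interaction (main 0). The filter on a mean of at least 5, which leaves 16 of the 30 members, gave 8 in the cold with PD0325901, 10 over the 4 treatments and 0 in 28C_AS against 28C_DMSO. A pseudocount of 0.5 gave 0 in 28C_AS against 28C_DMSO and 0 in the AS1842856 interaction. TPM as deposited gave 3 in 28C_PD against 28C_DMSO (2 higher and 1 lower, main 0 and 1) and 1 in the PD0325901 interaction. Array weights gave 2 in 28C_AS against 28C_DMSO and 2 in 28C_PD against 28C_DMSO. The groups compared alone gave 2 in 28C_AS against 28C_DMSO, neither of them dre-mir-729, whose call was lost (0.79, adjusted p = 0.0552), and 0 each in 28C_PD against 28C_DMSO, 10C_AS against 10C_DMSO and the AS1842856 interaction; the cause was not tested.

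Leaving out 1 library gave 11 to 14 calls in the cold with DMSO, 11 to 13 with AS1842856, 11 to 15 with PD0325901, 12 to 15 with SB203580, 15 to 17 over the 4 treatments, 9 to 12 in 10C_DMSO against 96hpf, 0 to 1 in 28C_DMSO against 96hpf, and 0 to 2 in 28C_AS against 28C_DMSO, 28C_PD against 28C_DMSO and the AS1842856 and PD0325901 interactions. It gave 1 throughout in 10C_AS against 10C_DMSO and 0 throughout in the other 4. The small change of dre-mir-199-3 over the 4 treatments turned to 0.05 with a pseudocount of 0.5 and lay between -0.13 and 0.13 without single libraries, and that of dre-mir-206-1 in 10C_PD against 10C_DMSO between -0.18 and 0.20.

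Libraries were not treated as paired by replicate number (correlations of deviations -0.06 to 0.23, with no comparison above 0.1 in all 3 pairs). These correlations cannot show whether libraries of the same number shared a clutch or tank. With a replicate block all 83 calls were kept, and the number called became 2 in 28C_AS against 28C_DMSO and 1 in the PD0325901 interaction.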
